A study of Homo sapiens with 13 samples.

Results

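The pull-down described here used miR-182-iso, a variant (isomiR) of the human miRNA miR-182 that begins 2 bases further 3′ than the canonical form. It makes up 2 of the 13 libraries of captured mRNA, miR-182-iso replicates 1 and 2, and these were chosen by their sample titles. They were set against the other 11 libraries, which were 2 pull-downs of miR-23b, 3 of miR-27a, 3 of miR-17-5p and 3 of miR-17-5p-iso. All 5 groups came from HEK293T, a cell line established from human embryonic kidney, transfected with 200 pmol of a biotinylated duplex and harvested after 24 h, and in each the duplex was recovered on streptavidin beads with the mRNA bound to it. As far as the labels say the groups differed only in the duplex. No mock-transfected library was among the 13, and the sources used here do not say whether replicates were separate cultures, so the p-values measure the spread between these libraries. A difference therefore compares the mRNA recovered with miR-182-iso with that recovered with unrelated miRNAs, and does not separate more mRNA bound to miR-182-iso from less bound to the others.

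A miRNA guides an Argonaute protein to an mRNA mainly through its seed, bases 2 to 8 from the 5′ end, which pair with a complementary site that usually lies in the 3′ untranslated region. A shifted 5′ end gives an isomiR another seed while leaving the central bases of the molecule the same, and pairing through those central bases is the other mode of binding that the study addressed. The guide strands of the duplexes are shown to compare their seeds. Each is written 5′ to 3′ with the seed in capitals, and the canonical miR-182 guide, which has no library here, is given for comparison.

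miR-182-iso guide: uGGCAAUGguagaacucacacu
miR-182 guide: uUUGGCAAugguagaacucacacu
miR-23b guide: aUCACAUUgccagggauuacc
miR-27a guide: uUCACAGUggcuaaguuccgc
miR-17-5p guide: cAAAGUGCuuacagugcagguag
miR-17-5p-iso guide: uCAAAGUGcuuacagugcaggua

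The miR-182-iso guide is 22 bases long and lies within the mature hsa-miR-182-5p sequence of RefSeq, which is 24 bases long and identical to the canonical guide of the study. It starts at base 3 of that sequence, and its locus is chr7:129770447-129770468 on the minus strand of GRCh38.p14. The 5 seeds of the libraries all differ. The comparators are not alike in how far their strands resemble miR-182-iso, because bases 5 to 12 of the miR-23b guide are the exact complement of bases 1 to 8 of miR-182-iso, and bases 8 to 15 of the miR-23b passenger strand are identical to them. Those stretches are in capitals here.

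miR-23b guide: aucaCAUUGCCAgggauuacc
miR-23b passenger: uaaucccUGGCAAUGugcuag

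The strands of the miR-27a duplex and of both miR-17 duplexes shared or complemented at most 5 bases in a row of miR-182-iso. Whether the miR-23b stretch had any part in the differences was not tested, and differences from miR-23b, from miR-27a and from the miR-17 family (miR-17-5p-iso and miR-17-5p, each group counting equally) are therefore also given separately.

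The values are normalized signals of 12007 bead array probes on a scale close to log2, which understates differences of dim probes. Library medians were nearly equal and the median difference over all genes was -0.02. Of the 18 genes listed as markers of the HEK293T line, 8 were measured, and their summed log2 level was 70.2 and 70.4 in the miR-182-iso libraries, against 66.1 to 69.5 in the other 11. Of 28 markers of other cell types 2 were measured, and their summed level was 15.4 and 15.9, against 15.9 to 18.2. Of the 8 HEK293T markers, 3 were called higher and 1 lower. The largest was VIM, the mesenchymal filament protein vimentin, at 1.62 ± 0.47, with 1.37 ± 0.22 at a second, dimmer probe that was also called higher. Of the 2 markers of other cell types, CD68, a macrophage marker, was lower by -1.52 ± 0.31 with overlapping groups. The other lay at -0.001 and was not called. The calls of CD68 and of the brighter VIM probe were lost without miR-182-iso replicate 2, and the part of these shifts in the results was not tested.

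The 2 miR-182-iso libraries correlated with each other at r = 0.979 over all probes, within the range of 0.941 to 0.984 for the 10 replicate pairs of the other 4 groups. With the other 11 libraries, replicate 1 correlated at 0.855 to 0.939 and replicate 2 at 0.797 to 0.921, whereas those 11 correlated among themselves at 0.870 to 0.984. Both miR-182-iso libraries were least like miR-27a replicate 1. These correlations run across probes of the same arrays and describe the libraries only.

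With miR-182-iso, 1415 of 8378 genes were higher (16.9%) and 1449 were lower (17.3%) at an adjusted p under 0.05 in limma, with 1 probe representing each gene. Among these, 962 higher genes (11.5%) had both miR-182-iso libraries above all 11 others, and 765 lower genes (9.13%) had both below all 11. A difference of more than 1 on the log2 scale, or 2-fold, was reached by 354 higher and 360 lower genes, and a difference of more than 2 by 33 higher and 11 lower genes. Of the probes without a single gene symbol, 242 were higher and 202 lower.

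**Figure D1:**
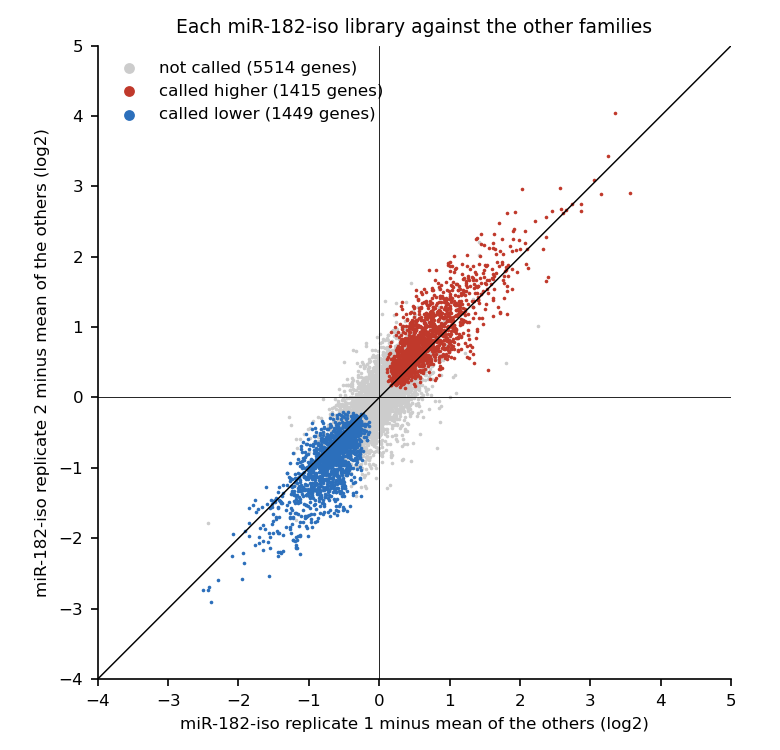
Difference of each gene in miR-182-iso replicate 1 (x axis) and replicate 2 (y axis) from the equally weighted mean of the other families, in log2 units, with 1 point per gene and the diagonal as a line of equal difference. Most of the 1415 genes called higher and the 1449 called lower lie farther from 0 on the y axis than on the x axis.

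The 2 libraries differed in the size of these differences. The genes called higher differed by a median of 0.62 in replicate 1 and 0.79 in replicate 2, and replicate 2 lay farther from the comparators for 1044 of the 1415. The genes called lower differed by a median of -0.65 in replicate 1 and -0.85 in replicate 2, with replicate 2 farther out for 1125 of the 1449. Without replicate 2, 478 genes were called higher and 292 lower. Of the 119 genes for which a call is described here, 85 kept their call with any single library left out and 87 kept it without replicate 2. None of the 119 changed direction when a library was left out. The counts of gene lists without replicate 2 given below are to be read beside those over all 8378 genes.

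The genes with the largest positive differences belonged to several cell compartments. UQCC2, an assembly factor of respiratory complex III, measured 13.19 and 13.38 with miR-182-iso, against a lowest, median and highest value of 9.30, 9.91 and 10.25 in the other libraries. Its difference was 3.33 ± 0.21 (SE; adjusted p = 1.16e-05, limma). Both miR-182-iso libraries thus lay about 3 units above the highest comparator, and UQCC2 was higher by 3.06 against miR-23b, 3.41 against miR-27a and 3.53 against the miR-17 family.

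CERS5, a ceramide synthase, measured 10.96 and 10.99 with miR-182-iso, against 7.70, 7.89 and 8.09 as the lowest, median and highest of the others (difference 3.06 ± 0.11, adjusted p = 3.27e-07, limma). Its 11 comparator values spanned less than 0.4 units, and its differences from the 3 families, 3.01, 3.07 and 3.12, were nearly equal. TMED9, a p24 cargo receptor of the early secretory pathway, measured 13.36 and 13.14, against 10.11, 10.60 and 10.77 (difference 2.75 ± 0.08, adjusted p = 1.72e-07). For both genes the groups were far from overlapping.

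MED24, a subunit of the Mediator complex that links transcription factors to RNA polymerase II, measured 11.65 and 12.05 with miR-182-iso, against 8.76, 9.02 and 9.39 in the others. A second probe of MED24 gave a difference of 2.86 ± 0.16, next to 2.77 ± 0.10 for the first. THOC3, a subunit of the THO complex for mRNA export, measured 12.01 and 12.02, against 8.99, 9.49 and 9.69, and its second probe gave 3.10 ± 0.55 next to 2.66 ± 0.12. The probes of these 2 genes thus gave like values.

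POLD1, the catalytic subunit of DNA polymerase delta, measured 10.82 and 10.71 with miR-182-iso, against 7.52, 8.08 and 8.53 in the others (difference 2.80 ± 0.13). PSMB3, a subunit of the proteasome core, measured 14.43 and 14.46, against 11.04, 11.76 and 12.65 (difference 2.74 ± 0.20), and PSME1, a subunit of the PA28 activator of the proteasome, measured 10.93 and 11.11, against 8.07, 8.56 and 9.47 (2.47 ± 0.23). RIDA, an enzyme that hydrolyses reactive imines, measured 12.61 and 11.95, against 8.33, 9.05 and 9.77, with a difference of 3.24 ± 0.29 and of 1.65 ± 0.21 at its second, dimmer probe. In each of these 4 genes both libraries stood above every comparator, as the choice required.

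RPS26, a protein of the small ribosomal subunit, had the largest difference of all called genes whose groups did not overlap, 3.69 ± 0.39, with 13.43 and 14.12 with miR-182-iso, against 9.22, 10.29 and 11.06 in the others. The transcribed pseudogene RPS26P11 measured 14.60 and 14.35, against 10.51, 11.39 and 12.24 (3.03 ± 0.33). The transcripts are near-identical, so the probes may read the same RNA, and a second, dimmer probe of RPS26 gave 1.13 ± 0.13. TUBA1C, an α-tubulin with closely related copies, was 2.55 ± 0.59 higher (adjusted p = 0.00941), but its comparator libraries ran over nearly 4 units, from 10.26 to 14.14. Its call was lost without miR-182-iso replicate 1 and without replicate 2, and its difference of 1.48 from the miR-17 family alone was not called.

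MRPL14 (2.63 ± 0.19), a protein of the large mitochondrial ribosomal subunit, C12orf57 (2.62 ± 0.18) and RBMX (2.50 ± 0.32), an RNA-binding protein with related copies in the genome, completed the 15 largest. The 2 miR-182-iso libraries of MRPL14 and C12orf57 lay within 0.1 units of each other, whereas those of RBMX measured 10.81 and 11.75. All 15 genes except TUBA1C were called higher against each of the 3 families.

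**Figure D2:**
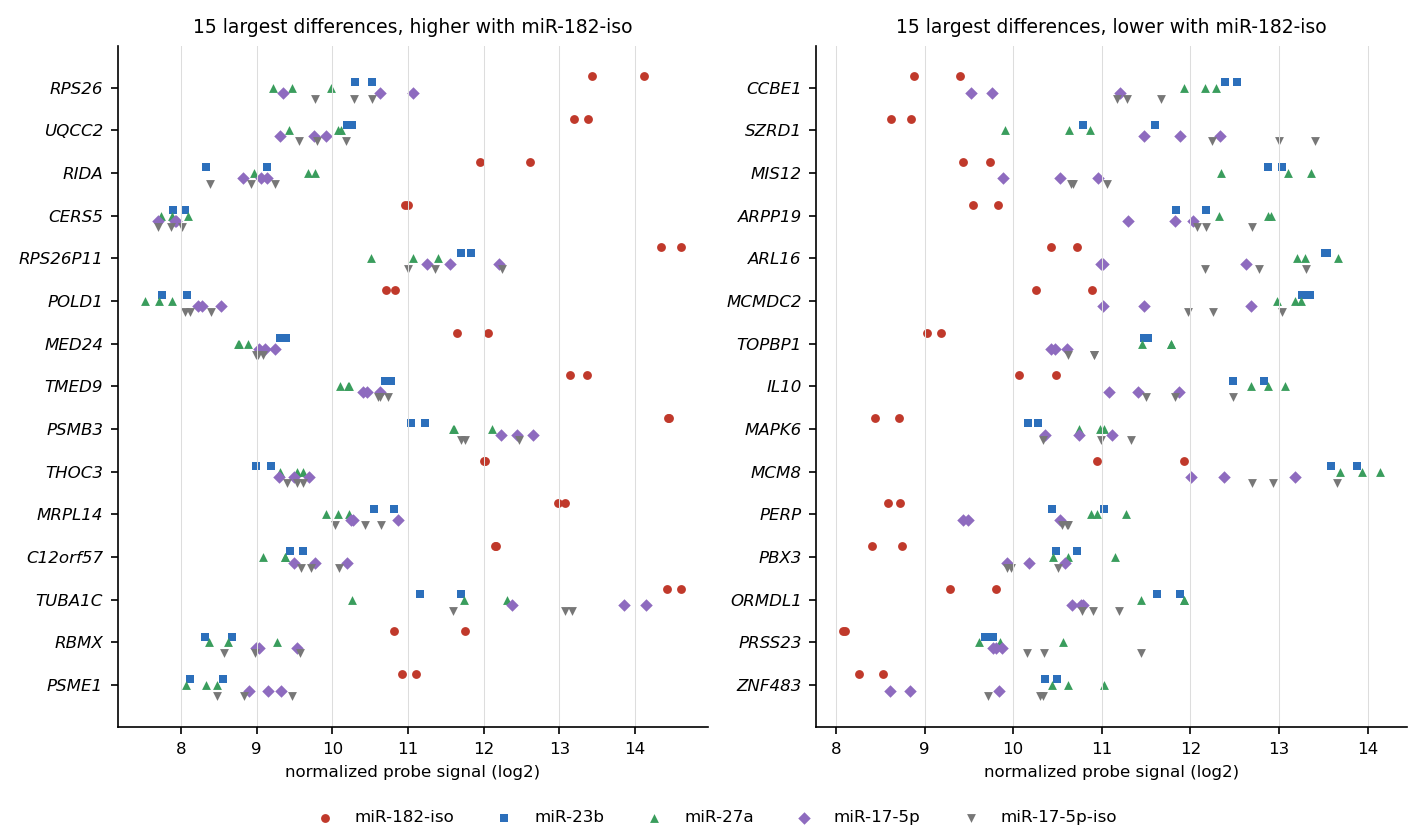
Normalized log2 signal of the 15 genes with the largest positive (left) and the 15 with the largest negative (right) differences, with 1 symbol per library and the groups set off vertically in the order of the key. These genes were chosen as having both miR-182-iso libraries beyond all 11 others, which they are by a wide margin for CERS5 and UQCC2 and narrowly for CCBE1 and ZNF483, for which a miR-17-5p library lies close.

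The largest negative differences were smaller than the largest positive ones. CCBE1, a secreted matrix protein known for lymphatic vessel growth, measured 9.39 and 8.88 with miR-182-iso, against a lowest, median and highest value of 9.52, 11.67 and 12.52 in the other libraries (difference -2.65 ± 0.35, adjusted p = 0.000682, limma). The lowest comparator, a miR-17-5p library, was only 0.1 units above the higher miR-182-iso library. The difference was -3.32 against miR-23b, -2.99 against miR-27a and -1.63 against the miR-17 family.

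MIS12, a subunit of the kinetochore complex that joins centromeres to microtubules, measured 9.73 and 9.43 with miR-182-iso, against 9.89, 11.06 and 13.36. Its difference was -3.37 against miR-23b and -3.35 against miR-27a, against -1.04 for the miR-17 family. SZRD1 ran the other way: it measured 8.84 and 8.62 with miR-182-iso, against 9.91, 11.60 and 13.41, and the difference was -3.66 against the miR-17 family, -2.46 against miR-23b and -1.74 against miR-27a. The size of these 2 differences thus depended on which unrelated miRNA was the comparator, although both were called lower against each of the 3.

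ARPP19, a small phosphoprotein that inhibits the phosphatase PP2A at entry into mitosis, measured 9.83 and 9.54 with miR-182-iso, against 11.29, 12.17 and 12.91 (difference -2.56 ± 0.23, adjusted p = 9.8e-05). TOPBP1, an activator of the ATR checkpoint kinase, measured 9.18 and 9.03, against 10.42, 10.91 and 11.78 (-2.17 ± 0.11, adjusted p = 3.69e-06). MAPK6, the atypical MAP kinase ERK3, measured 8.71 and 8.44, against 10.17, 10.74 and 11.33 (-2.07 ± 0.24). In these 3 genes the gap between the groups exceeded 1 unit.

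ORMDL1, an inhibitor of serine palmitoyltransferase, measured 9.81 and 9.28 with miR-182-iso, against 10.66, 11.19 and 11.92 in the others (-1.91 ± 0.17). PBX3, a homeobox transcription factor, measured 8.74 and 8.41, against 9.92, 10.48 and 11.15 (-1.93 ± 0.22), PERP, a desmosomal protein induced by p53, 8.58 and 8.72, against 9.43, 10.61 and 11.28 (-2.01 ± 0.26), and the serine protease PRSS23 8.08 and 8.10, against 9.61, 9.85 and 11.44 (-1.90 ± 0.30). None of the 4 overlapped, as the choice required. ARL16 (-2.45 ± 0.40), an ARF-like GTPase, had a second probe with a difference of 0.03 ± 0.18 (adjusted p = 0.92), so the 2 probes disagreed.

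MCMDC2 (-2.27 ± 0.38), an MCM-related protein of meiosis, MCM8 (-2.05 ± 0.34), a helicase of homologous recombination, the cytokine gene IL10 (-2.14 ± 0.26) and the zinc finger gene ZNF483 (-1.85 ± 0.29) completed the 15. The probe for IL10, a gene best known from immune cells, was bright in all libraries, with 10.48 and 10.06 with miR-182-iso, against 11.08 to 13.06. The calls of MCMDC2 and MCM8 were lost without miR-182-iso replicate 2.

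Of the 15 largest negative differences, 11 were smallest against the miR-17 family, and all 15 were called lower against each family. Over all 1449 genes called lower, the median difference was -0.78 against miR-23b, -0.94 against miR-27a and -0.53 against the miR-17 family, and 873, 1222 and 641 of them were called against the family alone. Over the 1415 genes called higher, the medians were 0.70, 0.85 and 0.59, with 952, 1277 and 899 called. Over all genes, 12.3% were higher and 13.2% lower against miR-23b alone, 20.2% higher and 20.2% lower against miR-27a alone, and 11.9% higher and 10.3% lower against the miR-17 family alone. In all, 600 genes (7.16%) were higher and 342 (4.08%) lower against each of the 3 families. The 3 comparisons share the 2 miR-182-iso libraries, so their calls are not independent.

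Some of the genes described were not called against every family. Against miR-23b alone, the calls of LSM3, LSM6, H2BC12, TMED3, RAB33B, ANAPC16, MAP2K3, SMARCD3, EIF4G2, CDKN1B, FOXO3, CTTN, RGS17 and VIM were lost. Against miR-27a alone, those of LSM3, COPZ1, CHEK2 and CTTN were lost. Against the miR-17 family alone, those of TUBA1C, NDUFB6, HNRNPU, EIF4G1, H2BC12, ALDOA, MED4, RAB33B, CENPV, ANAPC16, SLC38A2, ZNF652, MAP2K3, CHEK2, CDKN1B, CTTN, CREB1, RGS17, CLOCK, VIM and CD68 were lost. All of them kept their direction.

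Where both libraries lay below all 11 others, the nearest comparator was miR-17-5p replicate 3 for 209 of the 765 genes and miR-27a replicate 1 for 13.

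**Figure D3:**
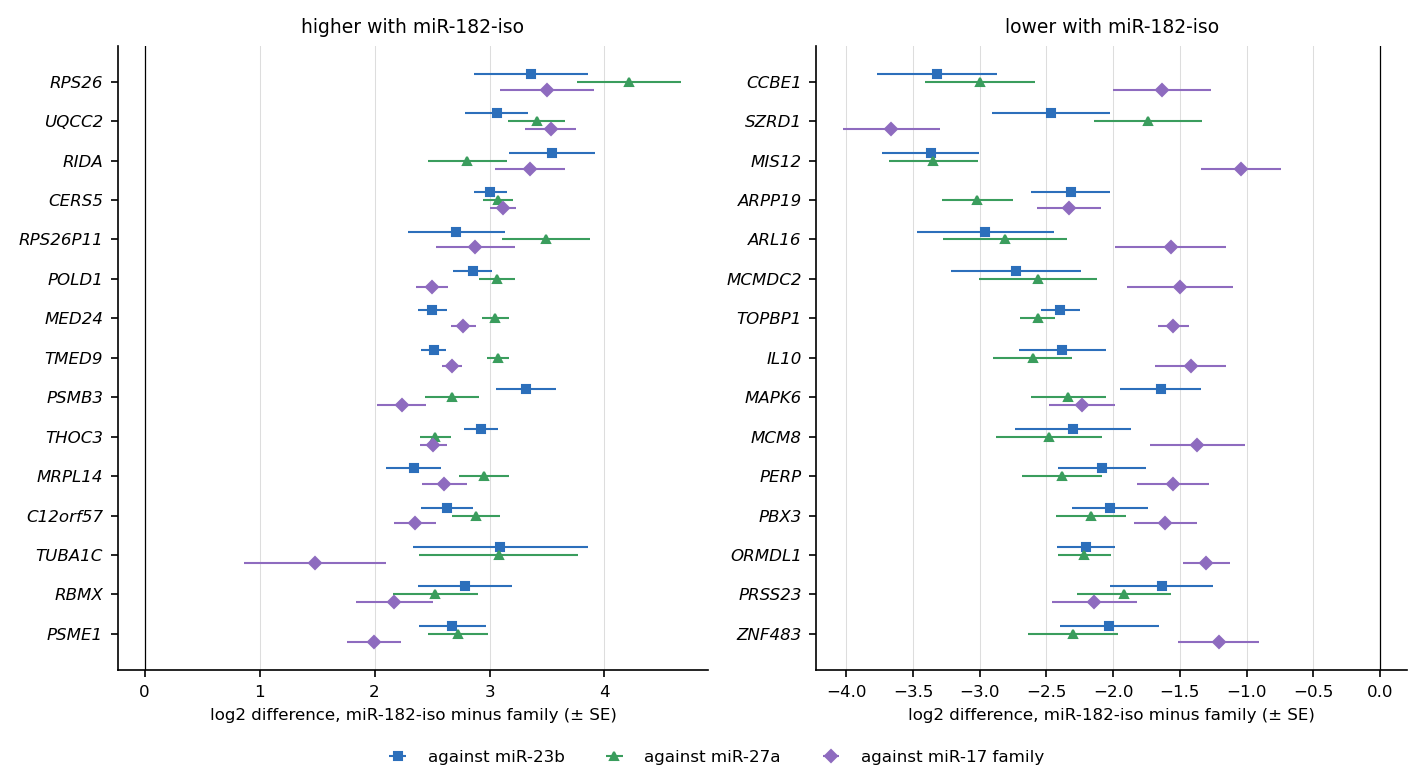
Log2 difference of miR-182-iso from miR-23b, miR-27a and the miR-17 family, with SE from the limma fit as bars, for the 15 largest positive (left) and the 15 largest negative (right) differences. CERS5 differs by 3.01 to 3.12 from all 3 families, whereas MIS12 differs by -3.37 from miR-23b and -1.04 from the miR-17 family.

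Of the 16 measured subunits of ATP synthase, the mitochondrial enzyme that makes ATP, 9 were higher and 0 lower, with a median of 0.64 over the list. ATP5F1A, the α subunit, measured 13.59 and 13.74 with miR-182-iso, against 11.05, 11.97 and 12.79 (1.82 ± 0.27), and ATP5MC1, of the membrane ring, was 1.66 ± 0.31 higher. Against miR-23b, miR-27a and the miR-17 family alone, 8, 9 and 6 of the 16 were higher, and 3 were still called without miR-182-iso replicate 2.

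In complex I, 10 of 28 measured subunits were higher and 1 lower (median 0.39), among them NDUFA7 at 1.22 ± 0.15. The lower subunit was NDUFB6 (-0.87 ± 0.28, adjusted p = 0.0387), whose groups overlapped and whose call was lost when any of 7 single libraries was left out, miR-182-iso replicate 2 among them, and with the replicate number as a block (adjusted p = 0.0557). Without that replicate, 2 complex I subunits were called higher. Assembly factors of complex I went the other way, with 0 of 7 higher and 3 lower, among them NDUFAF7 at -1.14 ± 0.17. The 2 other probes of NDUFAF7 gave 0.02 ± 0.13 and 0.01 ± 0.07 and were not called.

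In complex III, 4 of 13 genes were higher and 0 lower, with UQCC2 followed among them by CYC1 (1.42 ± 0.24), which carries the heme of cytochrome c1. In cytochrome c oxidase, by contrast, 3 of 25 genes were higher and 3 lower, near the share over all genes. COX7C, one of its small subunits, measured 14.09 and 14.12 with miR-182-iso, against 12.10, 12.81 and 13.36.

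Ribosomal protein genes moved in both directions. Of 26 measured genes of the small cytosolic subunit 7 were higher and 2 lower (median 0.58). Of 45 genes of the large subunit 9 were higher and 3 lower (median 0.31). The 20% higher in the large subunit was near the 16.9% over all genes. The higher counts against miR-23b, miR-27a and the miR-17 family alone were 4, 12 and 5 for the small subunit. For the large subunit they were 2, 14 and 3. RPS3 measured 14.44 and 14.34 with miR-182-iso, against 12.05, 12.76 and 13.65 (1.71 ± 0.16), RPS7 was 1.97 ± 0.32 higher and RPL29 2.15 ± 0.30 higher, the last with 2.13 ± 0.32 at a second probe. RPS24 was lower by -1.67 ± 0.36 and RPS3A by -1.01 ± 0.21, although in both 1 miR-182-iso library reached into the range of the comparators.

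The call of RPS24 was lost without miR-182-iso replicate 1 or replicate 2, and a second probe gave 0.23 ± 0.34. That of RPS3A was lost without replicate 1, and its 2 other probes gave -1.02 ± 0.26, which was called, and 0.30 ± 0.26, which was not. Ribosomal protein genes have many processed copies that probes may share.

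Among mitochondrial ribosomal proteins, 14 of 48 genes of the large subunit were higher and 4 lower. In the small subunit 4 of 28 genes were higher (14.3%, near the 16.9% over all genes) and 3 lower (10.7%). MRPS33 measured 11.55 and 11.45 with miR-182-iso, against 8.93, 9.21 and 9.84 (2.32 ± 0.19), and MRPL46 was 1.42 ± 0.19 higher. MRPL13 was lower, with 9.64 in both libraries, against 10.17, 10.59 and 11.63 (-1.18 ± 0.20).

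The proteasome, which degrades ubiquitin-tagged proteins, had 13 of 37 measured subunits higher and 0 lower (median 0.35). Beside PSMB3 and PSME1, PSMB5, a catalytic subunit of the core, was 1.56 ± 0.19 higher, with both libraries above all others. Against miR-23b, miR-27a and the miR-17 family alone, 12, 16 and 7 subunits were higher and 1 was lower in each case. Without miR-182-iso replicate 2, 6 were called higher. Ubiquitin-conjugating enzymes, which act upstream, had 3 of 22 genes higher and 5 lower, with UBE2J1 (-1.75 ± 0.32) and UBE2Q2 (-1.64 ± 0.30) as the largest, both lost without that replicate.

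**Figure D4:**
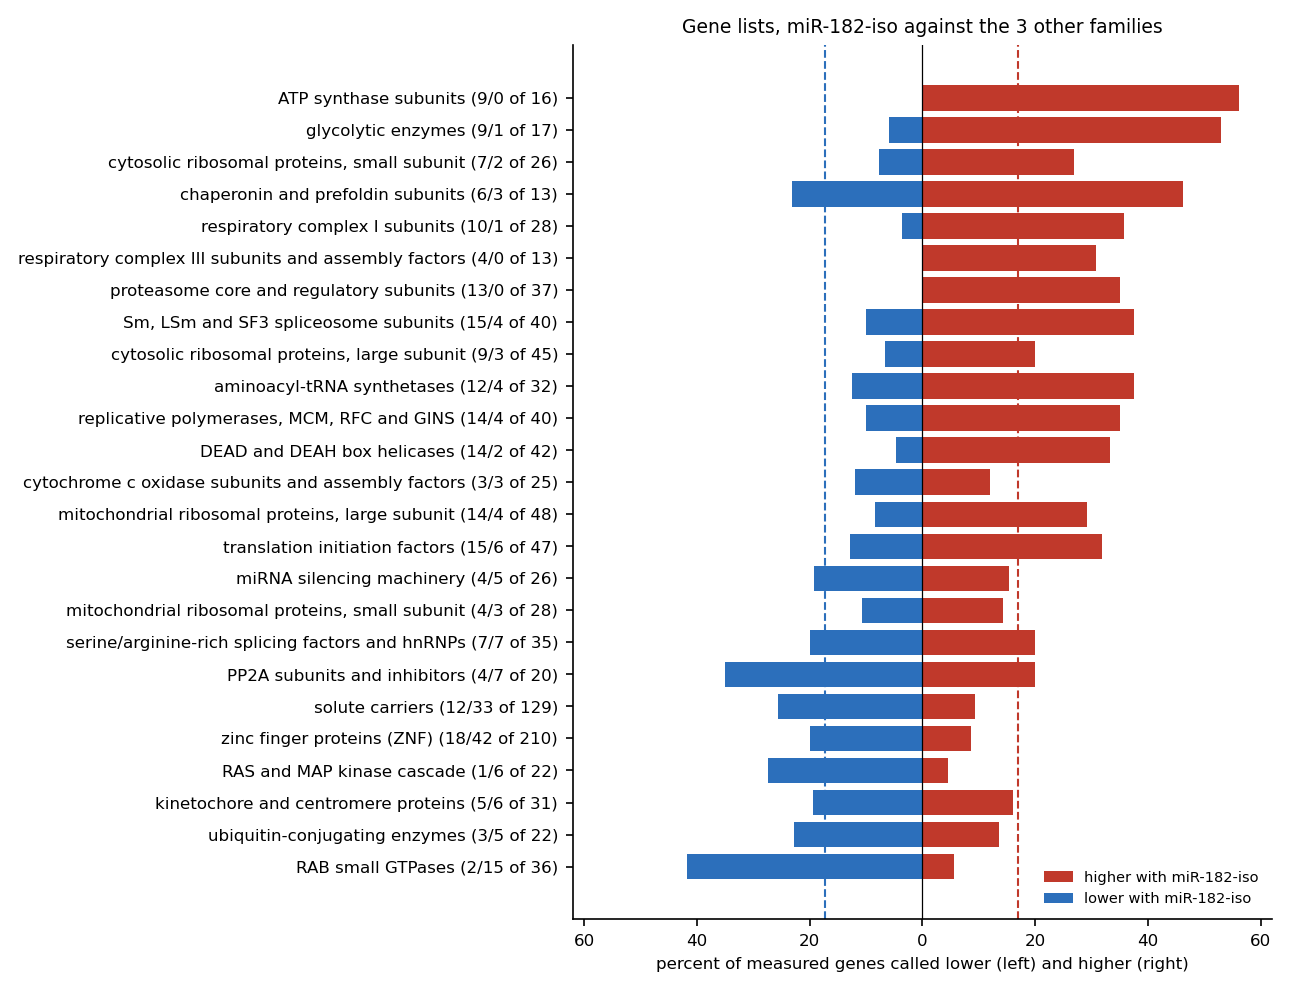
Percent of the measured genes of each list called higher (right, red) and lower (left, blue) with miR-182-iso, in order of the median log2 difference, with the counts in parentheses as higher/lower of measured. The dashed lines mark the 16.9% higher and 17.3% lower over all 8378 genes, with 9 of 16 ATP synthase subunits higher and 15 of 36 RAB GTPases lower.

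Some lists of mRNA processing and protein synthesis gave higher counts above the share over all genes, and others did not. Of 40 spliceosome subunits (Sm, LSm and SF3 proteins with other proteins of the U1 and U4/U6 particles), 15 were higher and 4 lower. SNRNP70, of the U1 particle, measured 10.98 and 11.42 with miR-182-iso, against 8.89, 9.93 and 10.69 (1.48 ± 0.23), and SNRPA, of the same particle, was 1.60 ± 0.14 and PRPF31, of the U4/U6 particle, 1.26 ± 0.20 higher. The largest negative members were LSM6 (-1.54 ± 0.30) and LSM3 (-1.44 ± 0.29), which bind the U6 RNA. LSM3 differed by -2.72 from the miR-17 family and was not called against miR-23b or miR-27a alone.

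Without miR-182-iso replicate 2, 6 of these 40 subunits were called higher and 1 lower, and the call of LSM6 was lost, while that of LSM3 was lost without replicate 1. Serine/arginine-rich factors and hnRNPs had 7 of 35 genes higher and 7 lower (20% each), near the shares over all genes. SRSF4 (1.60 ± 0.20) and HNRNPAB (1.58 ± 0.30) were among the higher genes, and HNRNPU (-1.17 ± 0.20), whose call was lost without miR-182-iso replicate 2, was the largest lower one.

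Translation initiation factors had 15 of 47 genes higher and 6 lower, with EIF3H, of the eIF3 complex, at 1.30 ± 0.18 and the scaffold EIF4G1 at 1.42 ± 0.33, whose call was lost without miR-182-iso replicate 2. Elongation and release factors had 3 of 13 genes higher and 3 lower (23.1% each). The elongation factor EEF2 was 1.18 ± 0.13 higher, whereas the release factor ETF1 measured 12.31 and 11.51 with miR-182-iso, against 12.71, 12.99 and 13.70 (-1.25 ± 0.20). Aminoacyl-tRNA synthetases, which load tRNAs, had 12 of 32 genes higher and 4 lower. YARS2 (1.70 ± 0.18) and KARS1 (1.44 ± 0.16) were higher, and NARS1 was lower (-1.20 ± 0.19). Without miR-182-iso replicate 2, the counts were 6 higher and 1 lower for initiation factors and 4 and 1 for synthetases.

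Of 13 chaperonin and prefoldin subunits, which fold actin and tubulin, 6 were higher and 3 lower, with CCT3 at 1.65 ± 0.23. The higher counts against miR-23b, miR-27a and the miR-17 family alone were 4, 6 and 3. The median of the list was 0.43, and 0.26 without miR-182-iso replicate 2. A second probe of CCT3 had the opposite sign and was not called (-0.39 ± 0.30). HSPE1, the mitochondrial co-chaperonin, measured 12.54 and 12.67 with miR-182-iso, against 10.11, 10.90 and 12.28 (1.69 ± 0.28). DEAD and DEAH box helicases, which remodel RNA, had 14 of 42 genes higher and 2 lower, with differences of at most 1.05. One of the larger was DDX50 (0.99 ± 0.15), a nucleolar helicase. Without miR-182-iso replicate 2, 1 helicase was called higher.

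The DNA replication list had 14 of 40 genes higher and 4 lower. Besides POLD1, they included MCM7 and MCM5, of the replicative helicase, and its partner CDC45. MCM7 measured 12.72 and 13.60 with miR-182-iso, against 10.49, 11.37 and 12.35 (1.89 ± 0.23), CDC45 11.44 and 12.11, against 9.62, 9.99 and 10.66 (1.83 ± 0.16), and MCM5 10.57 and 10.75, against 8.31, 8.97 and 9.64 (1.78 ± 0.17). Without miR-182-iso replicate 2, 8 replication genes were called higher and 0 lower. Of 11 measured histone genes 6 were higher and 0 lower. Their higher counts against miR-23b, miR-27a and the miR-17 family alone were 4, 5 and 3. The median of the list was 0.39, and 0.31 without miR-182-iso replicate 2. The largest was H2BC12 (0.98 ± 0.25), whose groups overlapped and whose call was lost without that replicate.

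Glycolytic enzymes had 9 of 17 genes higher and 1 lower (median 0.59). The higher counts against miR-23b, miR-27a and the miR-17 family alone were 7, 12 and 4, and the median was 0.42 without miR-182-iso replicate 2. GPI, which interconverts glucose and fructose phosphates, measured 10.69 and 10.95 with miR-182-iso, against 8.51, 9.66 and 10.48 (1.48 ± 0.23). ALDOA, the muscle-type aldolase, was 1.20 ± 0.19 higher, but by 0.31 against the miR-17 family alone, where it was not called, and its groups overlapped. Citric acid cycle enzymes had 3 of 16 higher and 3 lower (18.8% each), near the shares over all genes. CS, citrate synthase, the first enzyme of the cycle, measured 10.75 and 10.65, against 11.63, 12.02 and 12.55 (-1.29 ± 0.16), and its differences from the 3 families lay between -1.43 and -1.17.

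Genes of transcription gave mixed values. RNA polymerase II had 5 of 12 measured subunits higher and 1 lower, with POLR2F, shared by the 3 nuclear polymerases, at 1.11 ± 0.16 with overlapping groups. Its higher counts against miR-23b, miR-27a and the miR-17 family alone were 4, 5 and 3. The median of the list was 0.44, and 0.33 without miR-182-iso replicate 2. Mediator had 2 of 18 higher and 4 lower, so that MED24 stood apart from most of its complex, and MED4 was lower by -1.21 ± 0.26, a call lost without miR-182-iso replicate 2. Integrator had 4 of 14 higher and 1 lower, led by INTS7 (1.63 ± 0.18). Of 19 mRNA export genes 5 were higher and 1 lower, with POLDIP3, an adaptor of the TREX complex, at 1.14 ± 0.16 behind THOC3.

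RAB GTPases, which direct vesicle traffic between membranes, were mostly below the comparators: 15 of 36 were lower and 2 higher, with a median of -0.42. The lower calls ran from -0.42 to -1.05, with RAB33B, of the Golgi, at -1.05 ± 0.29. The call of RAB33B was lost without miR-182-iso replicate 2 and against miR-23b or the miR-17 family alone. Against miR-23b, miR-27a and the miR-17 family alone, 7, 17 and 5 were lower, and without miR-182-iso replicate 2 1 was. Without replicate 1, 12 were lower. RAB5A, of early endosomes, went the other way, with 11.74 and 11.06 with miR-182-iso, against 8.84, 9.29 and 10.04 (2.05 ± 0.21), and it was called higher against each family. Of 10 ARF and ARL genes 1 was higher and 4 lower, with ARL2BP, a binding partner of ARL2, at -1.07 ± 0.16.

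The p24 receptors had 4 of 8 genes higher and 1 lower. TMED3 was higher (1.46 ± 0.28) beside TMED9, and TMED2, which forms complexes with other p24 proteins, measured 11.19 and 10.33, against 11.36, 11.92 and 12.75 (-1.35 ± 0.23). Of the COPI and COPII coats, 3 of 17 subunits were higher (17.6%, near the 16.9% over all genes) and 1 lower (5.88%). COPG2 (1.31 ± 0.19) and COPZ1 (-1.05 ± 0.25), both of COPI, differed in direction, although the call of COPZ1 was lost without either miR-182-iso library.

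Genes of ceramide synthesis also split, at single probes. CERS5 rose, whereas SPTLC1, a subunit of serine palmitoyltransferase, measured 11.36 and 11.15 with miR-182-iso, against 11.64, 12.26 and 13.01 (-1.22 ± 0.16), DEGS1, the desaturase that makes ceramide, was lower by -0.74 ± 0.14, and ORMDL1 was lower as given above. The 4 other probes of SPTLC1, at 0.03, 0.16, 0.16 and -0.43, were not called, nor was the other probe of DEGS1 (-0.04 ± 0.19), and the call of DEGS1 was lost without miR-182-iso replicate 2. In all, 2 of 14 genes of this list were higher and 3 lower, a share of calls close to that over all genes.

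Among mitotic genes, 5 of 31 kinetochore genes were higher and 6 lower (16.1% and 19.4%), near the shares over all genes. The lower ones were led by MIS12 and by CENPV (-1.68 ± 0.30), a call lost without miR-182-iso replicate 2. Of 28 mitotic kinase, checkpoint and anaphase-promoting complex genes 9 were higher and 8 lower, with BUB1, a checkpoint kinase, at 1.12 ± 0.18 and ANAPC16 at -1.17 ± 0.28, whose call was lost without that replicate. PP2A subunits and inhibitors had 4 of 20 higher and 7 lower, and 5, 8 and 3 lower against miR-23b, miR-27a and the miR-17 family alone. The 2 largest were inhibitors of the enzyme, ARPP19 and SET, and SET measured 11.89 and 11.96 with miR-182-iso, against 12.81, 13.28 and 14.15 (-1.28 ± 0.18).

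Solute carriers had 12 of 129 genes higher and 33 lower, and zinc finger genes of the ZNF series 18 of 210 higher and 42 lower. SLC12A2, a sodium, potassium and chloride cotransporter, measured 7.82 and 7.76 with miR-182-iso, against 8.42, 9.20 and 10.19 (-1.44 ± 0.23), and SLC38A2, an amino acid transporter, was lower by -1.29 ± 0.24, a call lost without miR-182-iso replicate 2. The sugar transporter SLC50A1 was 1.09 ± 0.14 higher. ZNF430 measured 12.46 and 11.86, against 12.90, 13.80 and 14.33 (-1.66 ± 0.20), ZNF652 was lower by -1.63 ± 0.29, a call lost without replicate 2, and ZNF330 was 1.70 ± 0.23 higher. Without replicate 2, 6 solute carriers and 11 ZNF genes were called lower.

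In the RAS and MAP kinase cascade, 1 of 22 genes was higher and 6 lower. MAPK8, the stress kinase JNK1, was lower by -1.02 ± 0.17, and MAP2K3, which activates p38, by -1.10 ± 0.24, but by -2.07 against miR-27a and -0.34 against the miR-17 family, and its call was lost without miR-182-iso replicate 2. Of 22 apoptosis genes 4 were higher (18.2%, near the 16.9% over all genes) and 2 lower (9.09%). The 2 largest act at the mitochondrion as promoters of cell death and differed in direction: BAX measured 10.07 and 9.80 with miR-182-iso, against 8.57, 9.03 and 9.23 (0.92 ± 0.14), and PMAIP1 10.07 and 9.25, against 10.84, 11.37 and 12.29 (-1.84 ± 0.28).

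Of 26 genes of the miRNA silencing machinery, 4 were higher and 5 lower (15.4% and 19.2%), near the 16.9% and 17.3% over all genes. PRKRA, a partner of Dicer, measured 10.18 and 9.34 with miR-182-iso, against 10.46, 11.34 and 12.19 (-1.61 ± 0.26). In the CCR4-NOT complex, which shortens poly(A) tails, the deadenylases CNOT7 (-1.31 ± 0.20) and CNOT8 (-1.12 ± 0.14) were lower and CNOT3, a scaffold subunit, was 1.01 ± 0.14 higher. Of 8 genes for biotin-dependent enzymes and biotin metabolism, MCCC2 (0.53 ± 0.12) and PCCA (0.33 ± 0.08) were higher and 0 were lower. Both calls were lost without miR-182-iso replicate 2. None of 8 interferon-stimulated genes was called, and the smallest adjusted p among them was 0.218.

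The isomiR pull-down was also read for genes linked to miR-182. Of 13 genes tested as miR-182 targets with reporters in earlier studies, 11 were measured, 3 of them were higher and 3 lower, and the other 5 lay between -0.38 and 0.09. The transcription factor FOXO3 measured 12.08 and 11.83 with miR-182-iso, against 10.96, 11.26 and 11.79 (0.57 ± 0.14), but its difference from miR-23b alone was 0.21 (adjusted p = 0.43). CTTN, the actin-binding cortactin, was 0.42 ± 0.14 higher (adjusted p = 0.044) with overlapping groups at its brighter probe and 1.19 ± 0.20 higher (adjusted p = 0.00186) at the other, where the groups did not overlap. The call of the brighter probe was also lost with the replicate number as a block (adjusted p = 0.0601). The transcription factor CREB1 (-0.95 ± 0.23), the G protein regulator RGS17 (-0.79 ± 0.24) and the clock gene CLOCK (-0.53 ± 0.12) were lower. The calls of these 5 representative probes were lost without miR-182-iso replicate 2, and no gene of this list was then called in either direction. Other probes of CLOCK (-0.81 ± 0.16) and CREB1 (-0.77 ± 0.22) were called lower in the main fit. A further probe of CREB1 (-0.63 ± 0.26) and another of FOXO3 (1.01 ± 0.43) were not called. The targets of this list were tested with miR-182, whose seed differs from that of the isomiR.

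The oligonucleotides that the study listed for reporter constructs include, under miR-182, short stretches of 13 genes. The 4 shown differ in their seed matches to the forms of miR-182, with the match in capitals. That of SMARCD3 holds a match to bases 2 to 7 of miR-182-iso, that of RBPJ one to bases 2 to 8 of canonical miR-182, that of CDKN1B one to bases 2 to 7 of canonical miR-182, and that of FKBP1A holds no seed match and pairs with 11 central bases of miR-182-iso, counting G:U pairs as matches. The FKBP1A insert pairs equally well with 11 central bases of canonical miR-182, and those of SMARCD3 and MAX also pair with 11 central bases of the canonical form without a mismatch when G:U pairs are counted.

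SMARCD3 insert: gccctgctATTGCCccctgacc
RBPJ insert: agaattatTTGCCAAaagaggag
CDKN1B insert: gaaaaagaTGCCAAttattgtt
FKBP1A insert: tctcaagtTTTATTATTGCaataaaag

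None of the 13 inserts held a match to all of bases 2 to 8 of miR-182-iso. Of the 13 genes 12 were measured, and 4 were higher and 2 lower. SMARCD3, a subunit of the SWI/SNF chromatin remodeller, measured 9.11 and 9.14 with miR-182-iso, against 7.64, 8.03 and 8.59 (0.94 ± 0.16, adjusted p = 0.00237, limma), although its difference of 0.55 from miR-23b alone was not called. PRKCD, a protein kinase C, was 0.86 ± 0.16 higher and MAX, the partner of MYC, 0.53 ± 0.08 higher, and neither insert held a seed match to either form. CHEK2, a checkpoint kinase, was 0.64 ± 0.20 higher with overlapping groups, and its call was lost without miR-182-iso replicate 2, miR-23b replicate 1, miR-27a replicate 1 or miR-27a replicate 2. A second, dimmer probe of CHEK2 was called higher (1.01 ± 0.24, adjusted p = 0.0113).

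CDKN1B, the cell cycle inhibitor p27, was lower by -0.70 ± 0.21 and the initiation factor EIF4G2 by -0.64 ± 0.18, but EIF4G2 by -0.32 against miR-23b alone (adjusted p = 0.33). Both inserts match bases 2 to 7 of canonical miR-182. Other probes of the 2 genes did not pass the test, at 0.09 ± 0.13 for CDKN1B and 0.18 ± 0.16 and 1.17 ± 0.44 for EIF4G2, and the calls were lost without either miR-182-iso library. The 6 genes that were not called, RBPJ and FKBP1A among them, lay between -0.27 and 0.50 at their brightest probes. Of the dimmer probes, 1 of 3 for FKBP1A (0.55 ± 0.15, adjusted p = 0.0207) and 1 for PDPK1 (0.81 ± 0.16, adjusted p = 0.00495) were called higher. An insert is a short stretch of a transcript, and whole transcripts were not searched for sites here.

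Several features differed between the genes called higher and lower. Gene span and chromosome took no part in choosing the genes, but mean signal over all 13 libraries had chosen the probe that represents each gene. Higher calls made up 16.1 to 17.5% of the genes in each quartile of mean signal, whereas lower calls made up 3.53% of the dimmest quartile and 26.4% of the brightest. The scale compresses differences of dim probes, and the dimmest quartile starts at 7.44, near the lowest value of the libraries. The part of this in the split was not tested. The genes called higher spanned a median of 23.8 kb of the genome and those called lower 35.0 kb, against 28.9 kb over all genes. In the quartile of genes with the shortest span 19.9% were higher and 11.2% lower, and in the quartile with the longest 13.6% were higher and 20.3% lower.

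**Figure D5:**
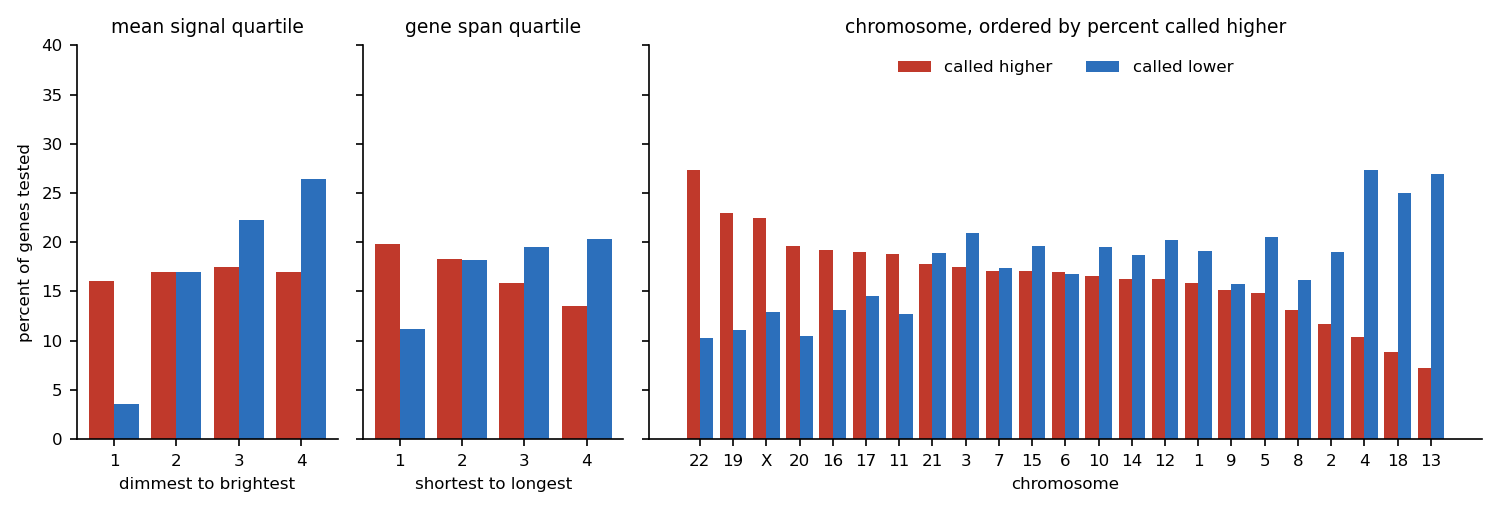
Percent of genes called higher and lower with miR-182-iso by quartile of mean signal (left), by quartile of the span of the gene in the genome (middle) and by chromosome (right, chromosomes with at least 50 measured genes in order of the percent called higher). Lower calls run from 3.53% in the dimmest to 26.4% in the brightest quartile, and chromosomes 22 and 13 stand at opposite ends for higher calls.

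The calls were also unevenly spread over chromosomes. On chromosome 22, 27.3% of 205 genes were higher and 10.2% lower, and on chromosome 19, 125 of 543 were higher and 60 lower. On chromosome 13, in contrast, 7.19% of 167 genes were higher and 26.9% lower, and on chromosome 4, 10.3% of 300 were higher and 27.3% lower. Against miR-23b, miR-27a and the miR-17 family alone, 18.05%, 30.2% and 19.5% of the genes of chromosome 22 were higher, and 4.79%, 7.78% and 4.79% of those of chromosome 13. All libraries came from the same line, and chromosomes differ in gene length and brightness, whose part in this order was not tested.

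Genes with several probes gave a check on single calls. Of 305 genes called higher that had another probe, 184 (60.3%) had another probe called higher and 2 (0.656%) one called lower. Of 387 genes called lower, 117 (30.2%) had another probe called lower and 17 (4.39%) one called higher. In the remaining 119 and 253 genes no other probe was called, and the representative probe is by choice the brightest of its gene. Among the genes described, another probe gave a smaller difference that was not called for the lower genes HNRNPU (-0.14 ± 0.18), ZNF430 (-0.12 ± 0.08), CS (-0.16 ± 0.27), MCM8 (-0.25 ± 0.19) and CD68 (-0.09 ± 0.07). LSM3 (-0.99 ± 0.53) and NDUFB6 (-0.44 ± 0.24) were further lower genes of this kind. The same held for the higher genes ZNF330 (0.29 ± 0.18), SLC50A1 (0.21 ± 0.15) and BAX (0.38 ± 0.19). It also held for SNRNP70 (0.46 ± 0.19), HSPE1 (0.72 ± 0.41) and EIF4G1 (0.99 ± 0.42). The other probe of ALDOA, at 1.89 ± 1.00, was not called either. Other probes were called in the same direction for ARPP19 (-1.17 ± 0.22), ETF1 (-1.41 ± 0.22), CNOT7 (-1.20 ± 0.23), HNRNPAB (2.54 ± 0.29 at both) and ATP5F1A (1.80 ± 0.40).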

How the data were processed

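Captured RNA from 13 pull-downs was hybridized to Illumina Human HT-12 bead arrays. The study as a whole used more than 1 version of this array (the version or versions of these 13: not given in the sources used here). Using lumi 2.2.1, the authors made the deposited log2 values (background adjustment, variance-stabilizing transformation, robust spline normalization) and kept probes detected in all mock-transfected controls. A second table of non-normalized signals was left aside, since none of its 26 columns can be tied to a sample by name. Of 12007 probes 10444 have 1 gene symbol (10442 matched by gene ID to RefSeq genes of GRCh38.p14, 2 symbols updated), covering 8378 genes, each represented by its brightest probe on average. The number of arrays limits the precision, and bead numbers per probe were not used here.

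Groups were fitted in 1 model with limma 3.58.1 in R 4.3.3 (lmFit, eBayes, two-sided), with weights of 1 for miR-182-iso and equal negative weights for miR-23b, miR-27a and the miR-17 family. Calls were made at 0.05 after Benjamini-Hochberg adjustment across the whole probe table. The alternatives were other comparators, normalizations, filters, thresholds and sets of libraries. The fit was tested on simulated data with independent noise and 200 of 12007 probes changed, which is simpler than the real data. It recovered 25.5% of the changed probes at a log2 difference of 0.5 and 98.5% at 2. Of its calls 3.8 to 7.1% were false. The study itself compared each pull-down with mock transfections, which is another contrast. Named genes are the 15 largest called differences in each direction whose groups do not overlap, up to 4 called members per direction of 55 gene lists, and the called genes of 2 miR-182 target lists, of which 1 is not described here. The comparison, the members and the lists were chosen with earlier results of these data known. Figures were drawn with matplotlib 3.10.9.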

Additional observations from a re-analysis of the deposited data

How the results depend on the processing

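All counts of genes and probes called higher or lower kept within 1.5 times under quantile normalization, median centring, an intensity trend in eBayes, one-sided tests, the plain mean of the 11 other libraries, the fit with only miR-182-iso, miR-23b and miR-27a libraries, the mean over the probes of each gene (genes only), and miR-23b or miR-27a alone as comparator. Against the miR-17 family alone, 1109 probes and 863 genes were lower. Among probes at or above the median signal, 1098 probes and 800 genes were higher, with fewer probes tested. At an adjusted p under 0.01, 1116 probes and 790 genes were higher and 868 probes and 662 genes lower.

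With 1 library left out, 673 to 2172 probes and 478 to 1497 genes were called higher and 390 to 1917 probes and 292 to 1508 genes lower. The lowest counts were those without miR-182-iso replicate 2, and without replicate 1 there were 1416 probes higher and 1115 lower. Leaving out either leaves 1 miR-182-iso library, which is then assumed to vary like the other groups.

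The labels do not say that shared replicate numbers pair libraries, and the data were mixed. Deviations of same-numbered libraries from their group means correlated with a median of 0.14 over 23 pairs, 13 of them over 0.1, against -0.08 over 44 pairs of different numbers. Deviations cancel out within a group, and in groups of 2 libraries they are mirror images. The pairs are therefore not independent, and the pairs of different numbers are no separate baseline. Same-numbered pairs of miR-182-iso, miR-23b, miR-27a and miR-17-5p-iso were all positive, from 0.06 to 0.63, and the negative ones, from -0.33 to -0.16, all involved miR-17-5p replicate 1 or 2. With the replicate block, 2126 probes and 1451 genes were higher and 1986 probes and 1548 genes lower, and the calls of NDUFB6 and CTTN were lost.

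Of 119 genes with a call described, under 26 alternatives, 1 changed direction: EIF4G2 was 0.24 higher with the mean over its probes, which disagree. Otherwise 2954 combinations of gene and alternative kept direction and call, and 131 lost the call. Normalizing the signals anew with neqc was not run, because the columns of that table name no sample.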
